A study of Homo sapiens with 4 samples.

Results

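The 10 genes described here are cardiac progenitor and sarcomere genes, chosen by name from the 58365 genes of the table. They are the transcription factors and cofactors NKX2-5, ISL1, MEF2C and MYOCD, the chromatin remodelling subunit SMARCD3, the muscle filament genes MYL7, MYL4, TNNT2 and ACTC1, and the secreted ligand BMP10. RNA was sequenced from H1 cells, an established human embryonic stem cell line, on day 2 of differentiation towards blood. All cells received activin A at 40 ng/ml and BMP4 at 50 ng/ml in the same medium. The IWP2 group (2 libraries) was treated with IWP2 over these 2 days, and the control group (2 libraries) is labelled DMSO. IWP2 blocks Porcupine, the enzyme that lipidates Wnt proteins so that they can be secreted, and the comparison therefore addresses which genes at this stage depend on Wnt ligands made by the cells themselves. The labels do not say whether the libraries of a group came from separate cultures, so p-values measure the spread between these libraries, which may be technical.

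Heart muscle arises from mesoderm, and activin, BMP and Wnt signals decide which mesoderm forms. In cardiac progenitors, transcription factors such as NKX2-5, ISL1 and MEF2C act together with the BAF chromatin remodelling complex, and SRF with its cofactor myocardin (MYOCD) binds CArG boxes in the promoters of muscle genes. The sarcomere that follows is built from actin thin filaments carrying troponin and tropomyosin, and from myosin thick filaments with their light chains. Several of these filament genes are also transcribed outside the heart and before any beating cell exists.

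Expression was given as FPKM, the fragments of a gene scaled to its transcript length and to the size of the library, so that levels can be compared between genes per length. A gene was tested when its mean over the 4 libraries was at least 0.5 FPKM, which left 15980 genes, and was called when limma gave an adjusted p below 0.05 on log2(FPKM + 1). Of the 10 genes, 8 passed this filter, and MEF2C and BMP10 did not. Between 13831 and 13926 genes had at least 1 FPKM in each library, and the smallest values put the depth at an estimated 19200000 to 23500000 fragments. Libraries of a group correlated at 0.975 and 0.981 on the log2 scale, and libraries of different groups at 0.938 to 0.948.

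With IWP2, NKX2-5, MYL7 and MYL4 fell and ACTC1 rose, whereas ISL1, SMARCD3, TNNT2 and MYOCD were not called. That is 4 of the 8 tested genes, where 13.2% of all tested genes were called. The 3 lower genes compare with 7.35% of tested genes called lower, and the single higher gene with 5.81% called higher. The values of the IWP2 and DMSO libraries did not overlap for 6 of the 8 tested genes, against 58.6% of tested genes. The median difference over all tested genes was -0.01 on the log2 scale. When all genes were tested without the filter on low values, MYL4 stayed called (adjusted p = 0.0345), and NKX2-5, MYL7 and ACTC1 did not (adjusted p = 0.0718, 0.0901 and 0.0692). In bulk RNA, fewer cells that express a gene and less of its RNA per cell cannot be told apart, which holds for every value here.

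**Figure D1:**
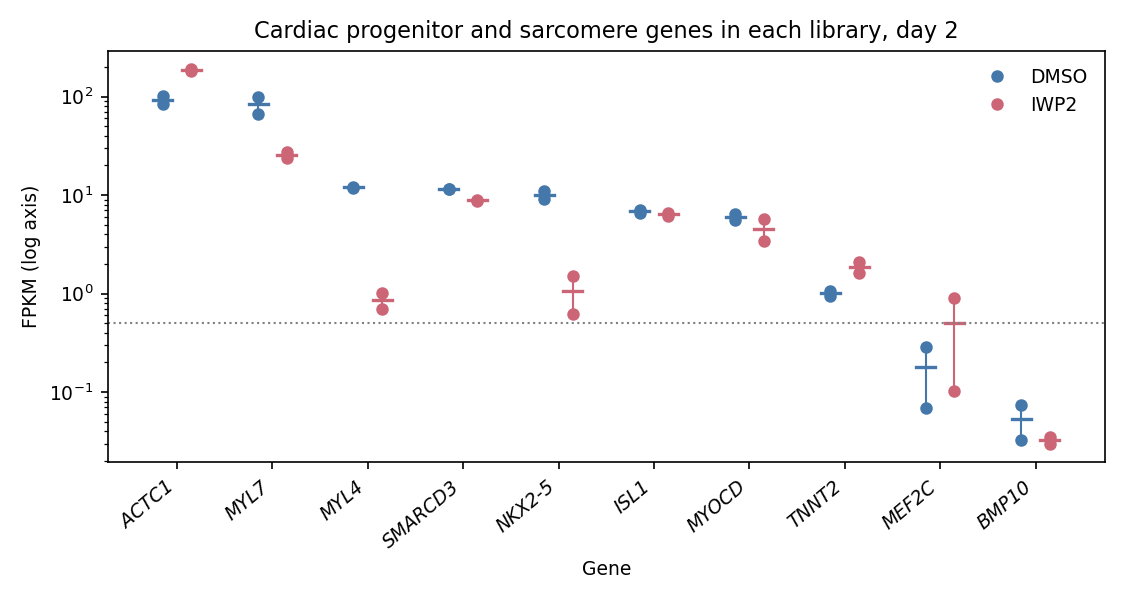
FPKM of the 10 genes (log axis) in the 2 DMSO and the 2 IWP2 libraries. Each dot is a library, the horizontal mark is the group mean, and the dotted line is the 0.5 FPKM used as the filter on the mean. NKX2-5, MYL7 and MYL4 lie lower with IWP2, ACTC1 lies higher, and MEF2C and BMP10 lie near or under the dotted line.

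NKX2-5 is a homeodomain factor and an early marker of cardiac progenitors. The gene (ENSG00000183072.9) lies on the minus strand of chromosome 5 at 173232109 to 173235357 in GRCh38, where GENCODE v29 has no other exon over its own. NKX2-5 was at 11.1 and 9.04 FPKM in the DMSO libraries and at 0.616 and 1.502 FPKM in the IWP2 libraries. Both control libraries were high and both treated libraries low, with a 2.44-fold gap between the treated pair. Its mean was 10.1 ± 1.44 FPKM (SD, n = 2) without and 1.06 ± 0.627 FPKM (SD, n = 2) with IWP2, a 9.50-fold lower level. The difference on the log2(FPKM + 1) scale was -2.45 (SE 0.25, 95% interval -3.09 to -1.81, limma adjusted p = 0.00612). The call was lost whichever single library was left out: the adjusted p then lay between 0.0605 and 0.0736 and the difference between -2.77 and -2.14.

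ISL1 is a LIM-homeodomain factor of the second heart field that is also active outside the heart. Its levels were 6.51 and 7.10 FPKM in the DMSO libraries and 6.06 and 6.63 FPKM in the IWP2 libraries. The groups overlapped, and libraries of a group differed by more than the group means did. The ISL1 difference was -0.09 (SE 0.12, 95% interval -0.40 to 0.22, limma adjusted p = 0.690). ISL1 lies on the plus strand of chromosome 5 at 51383391 to 51394738.

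MEF2C is a MADS-box factor of cardiac, skeletal and vascular cells. It was at 0.0696 and 0.289 FPKM in the DMSO libraries and at 0.102 and 0.908 FPKM in the IWP2 libraries. The second IWP2 library alone was above 0.5 FPKM, and the treated pair differed 8.92-fold. MEF2C (chromosome 5, 88717117 to 88904257, minus strand) shares 422 exon bases with MEF2C-AS1 on the opposite strand. The library kit did not mark strand, and MEF2C-AS1 was listed at 0.681 FPKM in the second IWP2 library and at 0 in the other 3. How the reads were divided between the genes was not tested. Among the other MEF2 genes, named here after their values were seen, MEF2A had means of 9.89 and 12.6 FPKM in DMSO and IWP2 and MEF2D 9.55 and 6.95 FPKM, neither called.

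Myocardin, the product of MYOCD, is the cofactor of SRF in cardiac and smooth muscle. MYOCD (chromosome 17, 12665890 to 12768949, plus strand) had 6.38 and 5.59 FPKM in the DMSO libraries and 5.75 and 3.38 FPKM in the IWP2 libraries. The first IWP2 library lay between the controls and the second below both. The antisense gene AC005358.2, which shares 704 exon bases with MYOCD, was at most at 0.0997 FPKM. The MYOCD difference was -0.36 (SE 0.23, 95% interval -0.96 to 0.24, limma adjusted p = 0.383). SRF itself was at 30.6 and 35.1 FPKM in DMSO and IWP2 (log2 difference 0.19, adjusted p = 0.209). MKL1, another SRF cofactor, named after its values were seen, rose from 18.4 to 28.3 FPKM (log2 difference 0.60, adjusted p = 0.0222). The related MKL2, named likewise, was at 9.69 and 6.25 FPKM and was not called (log2 difference -0.53, adjusted p = 0.235).

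SMARCD3, also known as BAF60C, is the BAF subunit that links the complex to cardiac transcription factors. It was at 11.5 and 11.6 FPKM in the DMSO libraries and at 8.96 and 8.71 FPKM in the IWP2 libraries. The groups did not overlap and replicate libraries were nearly equal, yet the difference did not pass the test (log2 difference -0.35, SE 0.10, 95% interval -0.61 to -0.09, limma adjusted p = 0.0922). SMARCD3 (chromosome 7, 151238764 to 151277896, minus strand) shares exon bases with 3 genes on the opposite strand. For AC021097.1, with 574 shared bases, 0.00675 and 0.928 FPKM were listed in the DMSO libraries and 1.83 and 2.73 FPKM in the IWP2 libraries. CHPF2, with 64 shared bases, was at 12.5 and 10.8 FPKM in the DMSO libraries and at 10.3 and 10.3 FPKM in the IWP2 libraries. AC005486.1, with 78 shared bases, was listed at 0 in every library. The part of these genes in the SMARCD3 values was not tested.

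MYL7 encodes the regulatory light chain of atrial myosin. The gene lies on the minus strand of chromosome 7 at 44138864 to 44141332, with no exon of another gene over it. MYL7 was at 100.01 and 66.0 FPKM in the DMSO libraries and at 23.5 and 27.3 FPKM in the IWP2 libraries. Both controls were above both treated libraries, and the controls themselves differed 1.52-fold. Its mean was 83.0 ± 24.1 FPKM (SD, n = 2) in DMSO and 25.4 ± 2.67 FPKM (SD, n = 2) in IWP2, a 3.27-fold lower level. The MYL7 difference was -1.64 (SE 0.21, 95% interval -2.19 to -1.10, limma adjusted p = 0.0113). The call was lost without the first IWP2 library (adjusted p = 0.144) and without the second (adjusted p = 0.129).

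MYL4, the essential light chain of embryonic and atrial myosin, had the lowest adjusted p of the 8 tested genes. It lies on the plus strand of chromosome 17 at 47200446 to 47223679. MYL4 was at 12.0 and 11.9 FPKM in the DMSO libraries and at 1.00 and 0.704 FPKM in the IWP2 libraries. The control pair was nearly equal and far above the treated pair. The mean fell 14.0-fold, from 12.0 ± 0.102 to 0.853 ± 0.211 FPKM (SD, n = 2 each). On the log2 scale the MYL4 difference was -2.81 (SE 0.15, 95% interval -3.19 to -2.43, limma adjusted p = 0.00106), and MYL4 stayed called whichever single library was left out.

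TNNT2 encodes cardiac troponin T, which ties the troponin complex to tropomyosin and is widely used to mark cardiomyocytes. It was at 1.07 and 0.949 FPKM in the DMSO libraries and at 1.62 and 2.07 FPKM in the IWP2 libraries. The groups did not overlap, but the difference did not pass the test (log2 difference 0.50, SE 0.17, 95% interval 0.05 to 0.94, limma adjusted p = 0.138). TNNT2 (chromosome 1, 201359008 to 201377762, minus strand) shares 81 exon bases with LAD1 on the same strand. LAD1 was at 4.83 and 3.798 FPKM in the DMSO libraries and 9.72 and 10.1 FPKM in the IWP2 libraries, and its part in the TNNT2 values was not tested.

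ACTC1 encodes the cardiac alpha actin of the thin filament, and was the most abundant of the 10 genes in both groups. It lies on the minus strand of chromosome 15 at 34788095 to 34795726. ACTC1 was at 101.0 and 84.0 FPKM in the DMSO libraries and at 182.3 and 188.2 FPKM in the IWP2 libraries. Both treated libraries were above both controls, and the mean rose 2.00-fold, from 92.5 ± 12.0 to 185.3 ± 4.17 FPKM (SD, n = 2 each). The ACTC1 difference was 1.00 (SE 0.11, 95% interval 0.72 to 1.28, limma adjusted p = 0.00747). The call was lost without the second DMSO library (adjusted p = 0.0511), without the first IWP2 library (adjusted p = 0.113) and without the second (adjusted p = 0.120). An antisense gene, AC087457.1, shares 367 exon bases with ACTC1 and was at most at 0.0186 FPKM.

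The actin genes are nearly identical in their coding sequence, so the division of reads among them is uncertain. ACTA1, the skeletal muscle alpha actin, also rose, from 10.96 to 27.1 FPKM (log2 difference 1.23, limma adjusted p = 0.0104). ACTA1 is on the skeletal muscle list as well, where the other 8 of 9 genes were below the filter and not tested. That list summed to 13.5 and 10.4 FPKM in the DMSO libraries and 25.4 and 29.7 FPKM in the IWP2 libraries, most of it ACTA1. Of 6 tested smooth muscle markers, 2 were called higher and 4 were not called, against 5.81% of all tested genes called higher. Their summed level, most of it TAGLN, was 579.8 and 489.4 FPKM in the DMSO libraries and 910.8 and 977.8 FPKM in the IWP2 libraries. TAGLN, which encodes an actin-binding protein, rose from 472.2 to 846.2 FPKM (adjusted p = 0.0135), and CNN1, which encodes calponin, from 39.5 to 70.7 FPKM (adjusted p = 0.0101). The 4 not called are named after their values were seen. SMTN was at 13.3 and 10.6 FPKM in DMSO and IWP2, and MYLK at 3.998 and 4.17 FPKM. The actin genes ACTA2, at 1.80 and 3.31 FPKM, and ACTG2, at 3.59 and 8.78 FPKM, lay higher with IWP2 (limma adjusted p = 0.147 and 0.123). LMOD1 and MYH11, the other genes of the list, named likewise, were below the filter, at most at 0.427 and 0.119 FPKM. Whether muscle cells were present, and their part in the ACTC1 result, was not tested.

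BMP10 is a BMP ligand of the trabeculated and atrial heart. It was at 0.0329 and 0.0743 FPKM in the DMSO libraries and at 0.0298 and 0.0348 FPKM in the IWP2 libraries. For its only annotated transcript of 1584 bases, these values come to an estimated 1, 2, 1 and 1 fragments. BMP10 was thus near 0 in both groups, and a difference at so low a level was not detectable. BMP10 lies on the minus strand of chromosome 2 at 68865481 to 68871517.

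**Figure D2:**
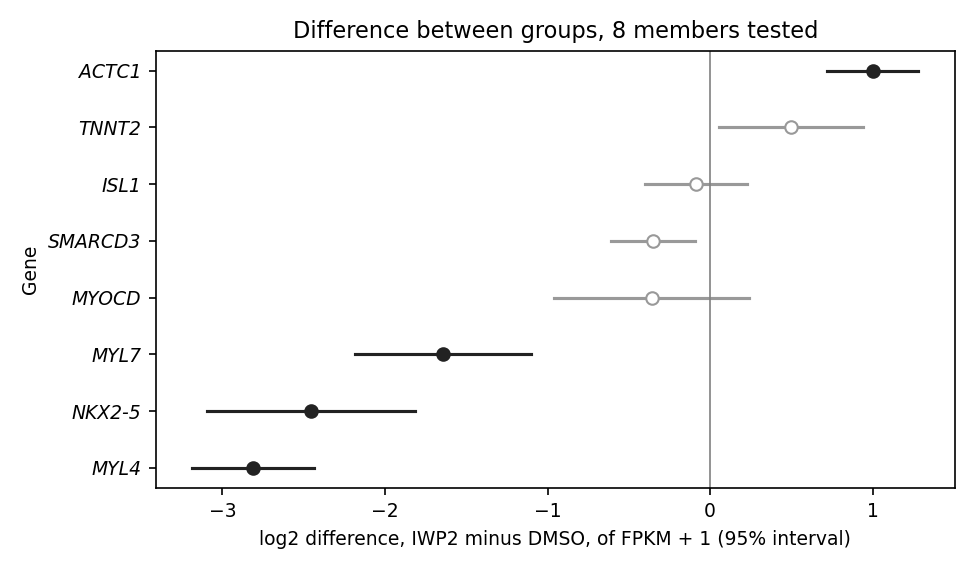
Difference between IWP2 and DMSO for the tested genes on the log2(FPKM + 1) scale, with the 95% limma interval as the bar. Filled points passed an adjusted p of 0.05 and open points did not. MYL4 at -2.81, NKX2-5 at -2.45 and MYL7 at -1.64 lie to the low side, and ACTC1 at 1.00 to the high side.

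MYL7 and ACTC1, the genes with the highest levels, moved in opposite directions, and a window upstream of a RefSeq start of each holds a CArG box. Promoter windows of 250 bases upstream of a start were read from RefSeq (GRCh38.p14), where 7 of the 10 genes matched with 17 windows. The CArG box was found in 2 of these 17 windows and in 1.16% of 35116 windows over all genes, searched on both strands. The windows below are shown because they hold these matches. The letters are written 5′ to 3′ on the gene's strand, with the CArG box in capitals.
MYL7, chr7:44141374-44141403, minus strand: ctgttcctctCCTTATTTGGaccttcaggt
ACTC1, chr15:34795639-34795668, minus strand: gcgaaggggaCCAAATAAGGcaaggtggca
The box lies 61 to 52 bases before the MYL7 start and 109 to 100 bases before the first listed start of ACTC1. Of the 250 bases of that ACTC1 window, 177 lie in an ACTC1 exon of GENCODE v29, which starts further upstream, and the box is inside that exon. The MYL7 window holds no exon base.

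The TCF/LEF motif, through which Wnt signals reach their target genes, was searched on both strands with 4 spellings. These were the letters CTTTGAA, then the form CTTTGAT, then the form CTTTGTA, and last the form CTTTGTT. The motif was in 0 of the 17 windows and in 12.0% of all windows, which says only that these letters are not in these windows. NKX2-5 and MYL4, which fell with IWP2, had no window and were not searched. GATA letters (AGATAA or TGATAA) were in 8 of the 17 windows, against 14.6% of all windows. The NKX2-5 motif AAGTG was in 9 windows, against 37.6% of all, the E-box CANNTG in 11, against 61.8%, and the T-box motif AGGTGTG and the MEF2 motif in 1 each, against 3.84% and 2.80%. Several windows belong to the same gene, most often MEF2C, so these counts are a description. The MYL7 window is shown in full below because it holds a GATA match beside the CArG box. Capitals mark the CArG box and the GATA match, which overlaps an E-box.
MYL7 upstream, chr7:44141333-44141582, minus strand: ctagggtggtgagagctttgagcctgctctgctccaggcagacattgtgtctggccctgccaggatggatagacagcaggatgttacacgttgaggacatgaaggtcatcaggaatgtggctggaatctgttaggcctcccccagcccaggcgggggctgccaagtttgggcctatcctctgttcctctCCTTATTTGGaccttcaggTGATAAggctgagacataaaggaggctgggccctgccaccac

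The summed level of the 10 genes was 249.7 and 196.4 FPKM in the DMSO libraries and 230.0 and 239.4 FPKM in the IWP2 libraries, ranges that overlapped. Its makeup differed. ACTC1 took 40.5% and 42.8% of the sum in the DMSO libraries and 79.3% and 78.6% in the IWP2 libraries. MYL7 took 40.1% and 33.6% in the DMSO libraries and 10.2% and 11.4% in the IWP2 libraries. For each FPKM of MYL7 there was 1.01 and 1.27 of ACTC1 in the DMSO libraries, and 7.76 and 6.90 in the IWP2 libraries. These ratios are formed within a library and follow from the opposite directions of the 2 genes.

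**Figure D3:**
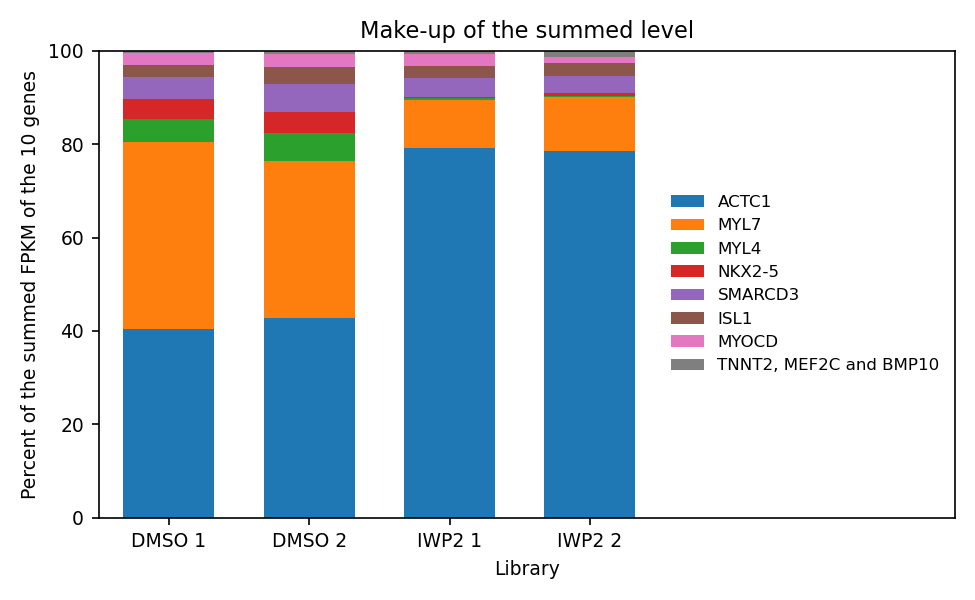
Percent of the summed FPKM of the 10 genes that each gene takes, stacked for each library. ACTC1 fills 40.5% and 42.8% of the DMSO bars and 79.3% and 78.6% of the IWP2 bars, and MYL7 shrinks from 40.1% and 33.6% to 10.2% and 11.4%.

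In the order of levels in DMSO, ACTC1 and MYL7 came first and overlapped each other, and MYL4, SMARCD3, NKX2-5, ISL1, MYOCD and TNNT2 followed with separate values. MEF2C and BMP10 came last and overlapped. In IWP2, ACTC1 and MYL7 were again first and were separate, followed by SMARCD3, ISL1, MYOCD and TNNT2. There NKX2-5 overlapped MYL4, and MYL4 overlapped MEF2C. The genes with the nearest profiles over the 4 libraries, by Euclidean distance of log2(FPKM + 1), were ISYNA1 (0.140), SDC2 (0.226) and ID3 (0.459) for ACTC1, and GADD45A (0.179), KRT16P1 (0.647) and TPST2 (0.680) for MYL7.

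NKX2-5 fell together with many other cardiac transcription factors. Of 38 such genes, 26 were tested, of which 15 fell, 2 rose and 9 were not called, with a median difference of -1.12. Over all tested genes, 7.35% were called lower and 5.81% higher, which are the shares to set beside every list below as well. MESP1, the factor of the earliest cardiac mesoderm, fell from 61.1 to 0.165 FPKM (log2 difference -5.70, limma adjusted p = 0.000648). The zinc finger factors GATA6 and GATA4 fell from 126.5 to 3.26 FPKM (log2 difference -4.90, adjusted p = 0.000310) and from 69.4 to 3.47 FPKM (log2 difference -3.97, adjusted p = 0.000411). IRX3, an Iroquois homeodomain factor, fell from 32.3 to 0.810 FPKM (log2 difference -4.18, adjusted p = 0.00106). LDB1, the adaptor that binds ISL1, was not called, at 50.2 and 52.2 FPKM (adjusted p = 0.729). TBX5, a T-box factor of the first heart field, named after its values were seen, was below the filter, listed at 0 in both DMSO libraries and at 0.285 and 0.572 FPKM in the IWP2 libraries.

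Other sarcomere genes did not share a direction. Of 49 listed, 29 were below the filter, 6 of these listed at 0 in all libraries, 3 rose, 2 fell and 15 were not called, with a median difference of 0.17. TMOD1, which caps the pointed end of actin filaments, fell from 10.5 to 0.148 FPKM (log2 difference -3.33, limma adjusted p = 0.000736). Cardiac troponin C (TNNC1) fell from 14.0 to 3.45 FPKM (log2 difference -1.69, adjusted p = 0.0275). TPM1, an alpha-tropomyosin of muscle and other cells, rose from 167.4 to 339.3 FPKM (log2 difference 1.01, adjusted p = 0.00340). The tropomyosins TPM3, at 430.8 and 406.7 FPKM, and TPM4, at 312.5 and 322.6 FPKM, were not called (adjusted p = 0.534 and 0.732). Genes of the cardiac myosin of working muscle, named after their values were seen, were at or near 0: MYL2 was listed at 0 in all 4 libraries, MYH7 reached at most 0.00784 FPKM and MYH6 at most 0.0537 FPKM. Other genes of heart muscle, also named after their values were seen, were measured in both groups and not called: TNNI3, cardiac troponin I, at 1.94 and 3.27 FPKM, and ANKRD1 at 26.2 and 37.3 FPKM.

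**Figure D4:**
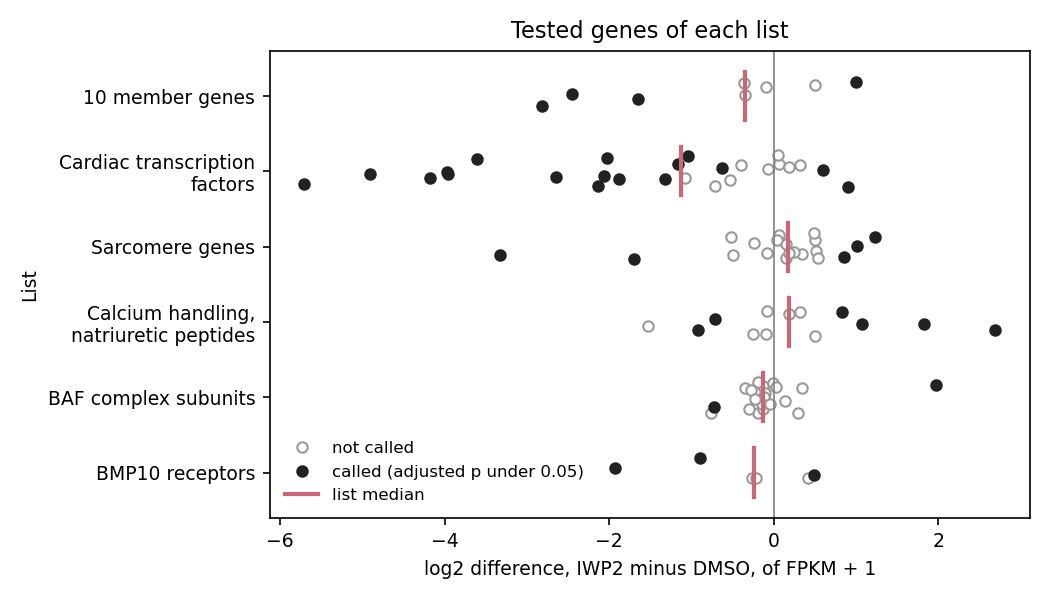
Difference between IWP2 and DMSO on the log2(FPKM + 1) scale for the tested genes of each list, with called genes filled and the list median as a red bar. The cardiac transcription factors (median -1.12) lie low, and the sarcomere genes (median 0.17) lie on either side of 0.

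Calcium handling and natriuretic peptide genes of the heart were also divided: of 13 tested among 22, 4 rose, 2 fell and 7 were not called, with a median difference of 0.18. NPPB, the B-type natriuretic peptide, rose from 19.4 to 130.8 FPKM (log2 difference 2.69, limma adjusted p = 0.000395), and the T-type calcium channel gene CACNA1G from 2.03 to 9.77 FPKM (log2 difference 1.82, adjusted p = 0.00291). RYR2, the calcium release channel, rose from 0.590 to 2.34 FPKM (adjusted p = 0.0182). The potassium channel gene KCNH2 fell from 2.25 to 0.705 FPKM (adjusted p = 0.0360). The calcium pump gene ATP2A2, at 78.0 and 72.9 FPKM, and TRDN, at 14.2 and 11.8 FPKM, were not called (adjusted p = 0.452 and 0.219).

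Of 22 other tested subunits of the complex that SMARCD3 belongs to, 1 rose, 1 fell and 20 were not called, with a median difference of -0.13, where 13.2% of all tested genes were called. The called subunits were the ATPase SMARCA2, which rose from 2.57 to 12.9 FPKM (log2 difference 1.98, limma adjusted p = 0.00523), and BCL7C, which fell from 42.6 to 25.5 FPKM (log2 difference -0.72, adjusted p = 0.0214). The alternative ATPase SMARCA4 was at 113.1 and 93.4 FPKM (adjusted p = 0.0897). The SMARCD3 paralogs SMARCD1, at 88.9 and 80.8 FPKM, and SMARCD2, at 38.2 and 48.7 FPKM and named after its values were seen, were not called (adjusted p = 0.370 and 0.0656), and both exceeded SMARCD3 in each group.

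Transcripts of BMP10 receptors were measured although BMP10 itself was near 0. Of 6 tested genes among the 8 on the BMP10 receptor list, which includes the related ligand GDF2, 2 fell and 1 rose, with a median difference of -0.24. The type I receptor ACVRL1 fell from 3.94 to 0.300 FPKM (log2 difference -1.93, limma adjusted p = 0.00369) and the type II receptor ACVR2A from 6.67 to 3.09 FPKM (log2 difference -0.90, adjusted p = 0.0242). BMPR1A, which binds several BMPs, rose from 39.3 to 55.9 FPKM (log2 difference 0.49, adjusted p = 0.0462). BMPR2 and ACVR2B were not called, at 14.5 and 12.5 FPKM and at 11.1 and 9.11 FPKM.

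The Wnt target genes served as a check on the treatment, and 13 of 17 tested fell, 1 rose and 3 were not called, with a median difference of -1.16. AXIN2, a feedback inhibitor of the pathway, fell from 14.7 to 6.01 FPKM (log2 difference -1.16, limma adjusted p = 0.00638). LEF1, a nuclear partner of beta-catenin, fell from 9.52 to 0.191 FPKM, and SP5, a direct Wnt target, from 50.1 to 0.371 FPKM (log2 differences -3.14 and -5.22). Among those not called were ZNRF3, at 5.82 and 6.77 FPKM, and RNF43, at 1.51 and 1.20 FPKM (limma adjusted p = 0.373 and 0.717). The gene that rose, named after its values were seen, was BAMBI, from 302.2 to 416.7 FPKM (adjusted p = 0.0467).

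Markers of other cell states also differed between the groups, in either direction. All 9 tested mesoderm markers of 10 fell, and their summed level was 1169 and 1480 FPKM in the DMSO libraries and 188.7 and 208.1 FPKM in the IWP2 libraries. Of 7 tested definitive endoderm markers 5 fell, with sums of 1921 and 2308 FPKM against 127.1 and 137.3 FPKM. Most of the DMSO sums was CER1, which fell from 1830 to 36.4 FPKM (limma adjusted p = 0.000310). SOX17 was not called, at 129.5 and 87.3 FPKM in DMSO and IWP2 (adjusted p = 0.167). The lists share genes: MESP1 and HAND1 are on the mesoderm and cardiac factor lists, T, TBX6 and MSGN1 on the mesoderm and Wnt target lists, GATA6 on the endoderm and cardiac factor lists, and HEY1 on the amnion and cardiac factor lists. Most pluripotency markers went the other way: 6 of 10 rose, 1 fell and 3 were not called, with sums of 1553 and 1391 FPKM against 2723.1 and 2723.5 FPKM. POU5F1, the largest part of these sums, rose from 661.1 to 1849 FPKM (adjusted p = 0.00559). LIN28A was not called, at 253.4 and 245.4 FPKM in DMSO and IWP2 (limma adjusted p = 0.746). Named after their values were seen, TDGF1 fell from 212.0 to 101.0 FPKM (adjusted p = 0.00340), and NANOG was not called, at 16.3 and 30.6 FPKM (adjusted p = 0.183). Of 9 tested amnion and trophoblast markers 3 rose and 1 fell, with sums of 107.1 to 118.8 FPKM in DMSO and 149.8 to 154.0 FPKM in IWP2. Of 6 tested neural markers 1 rose and 2 fell, with sums of 312.4 and 250.6 FPKM against 232.0 and 212.2 FPKM.

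On day 2 of hematopoietic differentiation, 7 of 12 hemato-endothelial markers were below the filter and 2 of the 5 tested fell. The study places endothelial and blood progenitor cells after the mesoderm stage. The list summed to 11.5 to 15.2 FPKM in DMSO and 5.58 to 6.92 FPKM in IWP2. TEK, an endothelial receptor, fell from 3.34 to 1.63 FPKM (limma adjusted p = 0.0479). CD34 was not called, at 3.73 and 1.80 FPKM in DMSO and IWP2 (adjusted p = 0.315). Named after their values were seen, RUNX1, a regulator of blood formation, fell from 2.43 to 0.280 FPKM (adjusted p = 0.00942), and ETV2 and SOX7 were not called (adjusted p = 0.408 and 0.280). The part of a changed mix of cell states in the differences of NKX2-5, MYL7, MYL4 and ACTC1 was not tested.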

How the data were processed

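The authors prepared libraries with a TruSeq RNA kit, which does not mark strand, from 2 µg of total RNA, and deposited FPKM values per gene. The submitters' processing notes name hg19, BWA, Bowtie and RSEM. The gene positions in the table are those of GRCh38: of 55723 versioned gene identifiers shared with GENCODE v29, 55629 had the same end and a start within 1 base. Positions in the text are from GENCODE v29, and 9 of the 10 genes have the deposited positions within 1 base. The exception is ACTC1, whose deposited end is 34796139, further upstream on its strand. The labels and the study's methods give the activin A and BMP4 concentrations the other way round, and those of the labels are printed. The 2 DMSO columns are named by the absence of IWP2 and were assigned to the group. Read counts were not used here, and the depth was estimated from the smallest values of genes of known length.

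From the FPKM values, log2(FPKM + 1) of genes with a mean of at least 0.5 FPKM was compared between IWP2 and DMSO with limma 3.58.1 in R 4.3.3 (trended variance, Benjamini-Hochberg adjustment over 15980 genes). The script was tested on simulated data. SDs are of FPKM, and log2 differences understate the change of low genes. Genes were named by a rule: the 10 genes, up to 4 called genes with the largest change and up to 2 uncalled genes with the highest level of each pathway list, AXIN2, LEF1 and SP5, and examples of marker lists. The genes and lists were chosen with earlier results of these data known. Alternatives were the pseudocount, the filter, the scaling, the variance trend, a replicate block and leaving out each library. Promoter sequences are from RefSeq.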

Additional observations from a re-analysis of the deposited data

How the results depend on the processing

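NKX2-5, MYL7, MYL4 and ACTC1 kept their direction under all 12 alternatives, and ISL1, SMARCD3, TNNT2 and MYOCD were called under none. The direction of these 4 called genes could not change when a library was left out, since their groups did not overlap. The filter, the variance trend and the replicate block leave the difference itself unchanged. Without the filter on low values, 118 genes were called higher and 263 lower, against 929 and 1175, MYL4 was the 1 gene of the 10 still called (adjusted p = 0.0345), and 3 listed pathway genes rose and 18 fell, against 12 and 35. In that fit NKX2-5 was at -2.45 (adjusted p = 0.0718), MYL7 at -1.64 (adjusted p = 0.0901) and ACTC1 at 1.00 (adjusted p = 0.0692), and the cause was not tested. Leaving out 1 library, which assumes that the lone library varies like the other group, called 18 to 286 genes higher and 76 to 410 lower, 1 to 3 of the 10 genes, and 1 to 4 pathway genes higher and 10 to 23 lower. The differences then ran from -2.77 to -2.14 for NKX2-5, from -1.94 to -1.35 for MYL7 and from 0.87 to 1.13 for ACTC1. In a paired fit with the replicate number as a block, 842 genes were called higher and 1059 lower, and 4 of the 10 genes stayed called. The deviations of same-numbered libraries correlated at 0.142 in 2 pairs, and the libraries share only a number. BMP10 was near 0 in both groups, with an estimated 1 or 2 fragments a library.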
